A study of Mus musculus with 12 samples.

Results

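This comparison sets CD11c+ spleen cells of ApoE-/- mice on a high-cholesterol diet against the same cells of Bl6 mice on that diet. It used 6 of the 12 arrays of the series, chosen by their titles: samples 4, 5 and 6 from ApoE-/- mice and samples 10, 11 and 12 from Bl6 mice. The knockout's label is written ApE-/- in one place and ApoE-/- elsewhere, and the Bl6 mice are also called WT. The cells were pulled from spleens with CD11c MicroBeads on magnetic columns, and the RNA of each sample was amplified and hybridised to an Illumina MouseWG-6 v2.0 array. The samples carried no other named allele or agent, and neither the age nor the sex of the mice is given in the sources used here. The other 6 arrays, 3 ApoE-/- and 3 Bl6 on normal chow, entered the fit and served as a comparison on another diet. Nothing in the labels says that the 3 samples of a group came from different mice. Each p-value therefore refers to the spread among samples only, and that spread may be technical.

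Apolipoprotein E is a secreted protein that carries lipid and is the ligand through which the liver clears remnant lipoproteins from blood. Mice without it have high plasma cholesterol and develop atherosclerosis, and cholesterol in the diet raises both. Macrophages and dendritic cells make apolipoprotein E themselves and release it with cholesterol. CD11c, the product of Itgax, marks dendritic cells, and some macrophages, monocytes and lymphocytes of the spleen carry it too. The series is about apolipoprotein E made by CD11c+ cells and its part in atherosclerosis, and the comparison asks which transcripts of these cells differed with the genotype under the diet.

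Values are log2 intensities after background correction and quantile normalisation, and a probe was called detected on an array where its deposited detection p was under 0.05. The 22729 probes of 46237 that were detected on at least 3 of the 6 arrays were tested with limma. A probe was called where the p-value adjusted over all of them was under 0.05, and a gene was read from the brightest of its tested probes. Median raw intensity was 102.2 to 119.8 over the 12 arrays, with 47.7% to 50.3% of probes detected, and the median SD within a group was 0.162 to 0.199 on the log2 scale. The deposited log2 table holds the 6 ApoE-/- arrays under the opposite diet, samples 1, 2 and 3 exchanged with 4, 5 and 6. Which table names the diets correctly cannot be told from the files. The names of the intensity table were used, and results that depend on them are also given with the diets exchanged.

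All 11 genes of a list for CD11c+ and dendritic cells were tested, and 10 of them were detected on all 6 arrays. Itgax read 8.12, 8.73 and 8.61 in ApoE-/- samples, against 8.48, 8.43 and 8.61 in Bl6 samples, a log2 difference of -0.02 ± 0.16 (SE, n = 3 each) that did not pass the test. Markers of other spleen cells were also present. Of 16 listed T cell genes 12 were tested, of 15 B cell genes 11, and of 18 macrophage genes 17. All of these tested genes were detected on every one of the 6 arrays. A tested gene had already been detected on at least 3 of the 6 by the filter, and the other listed genes had no tested probe.

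Between the genotypes on the high-cholesterol diet, 248 of 22729 probes passed limma's test (1.09%), 86 higher and 162 lower in ApoE-/- samples. By their brightest probe, 165 of 12772 named genes were called (1.29%): 53 rose (0.415%) and 112 fell (0.877%) in ApoE-/- samples. Counting any tested probe, 210 genes were called (1.64%), and all other gene counts are by the brightest probe unless another is named. The groups did not overlap for any of the 165, where 11.4% of all genes had every ApoE-/- value above every Bl6 value and 10.4% had every one below. The called genes differed by at least 0.484 on the log2 scale, 60 of them by 1 or more, with a median size of 0.879. The median over all genes was 0.0101. The largest differences were in Apoe, in sex-linked genes and in genes near Apoe on chromosome 7, and most of the other called genes differed by less than a log2 of 2.

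**Figure D1:**
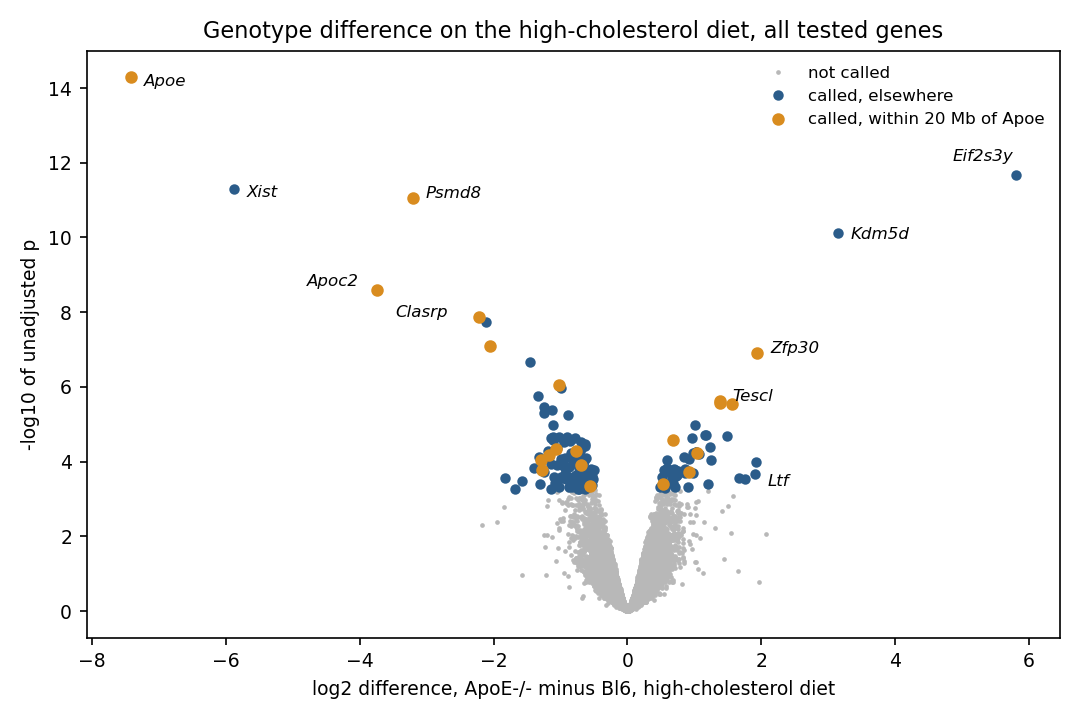
Each point is 1 of the 12772 tested genes. The x axis gives the log2 difference, ApoE-/- minus Bl6 on the high-cholesterol diet, and the y axis -log10 of the unadjusted p. Orange marks the 21 called genes within 20 Mb of Apoe, blue the other called genes and grey the rest. Apoe lies farthest to the left at -7.42 and Eif2s3y farthest to the right at 5.80.

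The 165 calls rest on few arrays. Without Bl6 sample 10 only 48 probes were called, and without ApoE-/- sample 4 or Bl6 sample 12 there were 58 and 59. Without Bl6 sample 11, ApoE-/- sample 5 or ApoE-/- sample 6 the count was 90, 107 and 118. Of the 165 genes, 26 passed in all 6 of these fits, 59 passed in none of them, and 21 passed in a fit of the 6 arrays alone. With the knockout diets exchanged, 191 probes were called and 92 of the 163 genes that had a value passed in the same direction. The split into higher and lower depended on the scaling. The share of called probes that were higher in ApoE-/- samples was 34.7% here, 24% after median scaling and 74.3% in the deposited log2 values, where 934 probes were called.

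Apoe itself, the targeted gene, read 5.61, 5.80 and 5.75 in ApoE-/- samples, against 13.11, 13.29 and 13.04 in Bl6 samples. Its log2 difference was -7.42 ± 0.13 (limma, adjusted p = 1.18e-10), a level 171.6 times as high in Bl6 samples. The probe was still detected on all 3 ApoE-/- arrays. The knockout labels of samples 4, 5 and 6 and the Bl6 labels of samples 10, 11 and 12 therefore match the Apoe level on each array.

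All 6 tested genes of the apolipoprotein list lay lower in ApoE-/- samples, 5 of them without overlap between the groups, and 2 of the 6 were called: Apoe itself and Apoc2. Over all genes, 10.4% lay lower without overlap and 0.877% were called lower. Of the 6 genes, 3 lie within 20 Mb of Apoe, Apoe included. The list also holds genes that code for no apolipoprotein, such as the receptor gene Apobr. Apoc2, whose product activates lipoprotein lipase and whose gene lies 0.024 Mb from Apoe, read 5.12, 5.28 and 5.79 in ApoE-/- samples, against 8.91, 9.51 and 8.99 in Bl6 samples. The groups were far apart, by a log2 of -3.74 ± 0.22 (limma, adjusted p = 8.38e-06), but a second, dim Apoc2 probe differed by 0.05 ± 0.30. Apoc1, which lies in the same cluster and whose product inhibits lipid uptake from lipoproteins, read 11.08, 10.64 and 10.64 in ApoE-/- samples, against 11.28, 11.56 and 11.31 in Bl6 samples. Its difference of -0.60 ± 0.15 did not pass (limma, adjusted p = 0.0934), although the groups did not overlap. On chow Apoc1 was higher in ApoE-/- than in Bl6 samples, by 0.98 ± 0.15 (limma, adjusted p = 0.0218). The difference between these contrasts, -1.57, did not pass (limma, adjusted p = 0.0766).

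Genes near Apoe made up 12.7% of the calls. Within 20 Mb of Apoe, 21 of 336 tested genes were called (6.25%), 8 higher and 13 lower in ApoE-/- samples. Within 1 Mb and leaving out Apoe, 5 of 41 were called (12.2%). The share was 3 of 48 between 1 and 5 Mb, 6 of 109 between 5 and 10 Mb, and 6 of 137 (4.38%) between 10 and 20 Mb. On the rest of chromosome 7 it was 8 of 608 (1.32%), and on the other autosomes 112 of 10446 (1.07%). Whether this region of the knockout chromosome differs from Bl6 in sequence was not tested.

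Psmd8, a subunit of the regulatory lid of the proteasome whose gene lies 9.48 Mb from Apoe, had the third largest fall of the genes in this region. It read 8.26, 7.97 and 8.15 in ApoE-/- samples, against 11.38, 11.24 and 11.37 in Bl6 samples, a log2 difference of -3.20 ± 0.11 (limma, adjusted p = 3.98e-08). Of the 27 tested genes of the constitutive proteasome it was the only one called by its brightest probe, and the median of those probes was -0.07. A dimmer probe of Psmc4, a proteasome ATPase gene that also lies within 20 Mb of Apoe, averaged 4.53 in ApoE-/- samples and 7.64 in Bl6 samples, a difference of -3.11 ± 0.19 (limma, adjusted p = 1.05e-05). The brightest Psmc4 probe had 0.04 and did not pass (limma, adjusted p = 0.901), so the 2 probes of that gene disagree. Clasrp, which codes for a splicing-related protein and lies 0.106 Mb from Apoe, read 6.21, 6.43 and 6.49 in ApoE-/- samples, against 8.59, 8.86 and 8.35 in Bl6 samples. Its difference was -2.23 ± 0.15 (limma, adjusted p = 2.99e-05). Zfp420, a zinc finger gene, was not detected on any ApoE-/- array and was at least 3.97-fold lower in ApoE-/- samples (limma, adjusted p = 0.000139). Its values were 4.47, 4.61 and 4.28 in ApoE-/- samples, against 6.69, 6.38 and 6.45 in Bl6 samples.

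The region also held genes that rose. Zfp30, another zinc finger gene that lies 10.1 Mb from Apoe, read 6.32, 6.47 and 6.28 in ApoE-/- samples, against 4.70, 4.29 and 4.26 in Bl6 samples, where 1 of 3 arrays detected it. Its log2 difference was 1.94 ± 0.17 (limma, adjusted p = 0.000201). Tescl read 5.64, 6.07 and 5.99 in ApoE-/- samples, against 4.68, 4.41 and 4.46 in Bl6 samples, a difference of 1.38 ± 0.16 (limma, adjusted p = 0.00231). For both genes every ApoE-/- value lay above every Bl6 value. Nfkbib, which codes for an inhibitor of NF-kappaB, rose by 1.04 ± 0.17 (limma, adjusted p = 0.0186), and it was the only one of 14 tested NF-kappaB genes to be called. Nfkbib passed in 2 of 6 fits without 1 array. All 14 lay above 0, where 51.7% of all genes did so. Their median was 0.25, and 0.07 on chow, and 3 of them, Nfkbib included, lie within 20 Mb of Apoe. In 7 of the 14 every ApoE-/- value lay above every Bl6 value, where 11.4% of all genes did so. Falls of a smaller size were seen for Fbxo46 (-1.30), Dmwd (-1.06, and -1.81 by its other called probe) and Mrps12 (-1.03), a mitochondrial ribosomal protein gene.

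**Figure D2:**
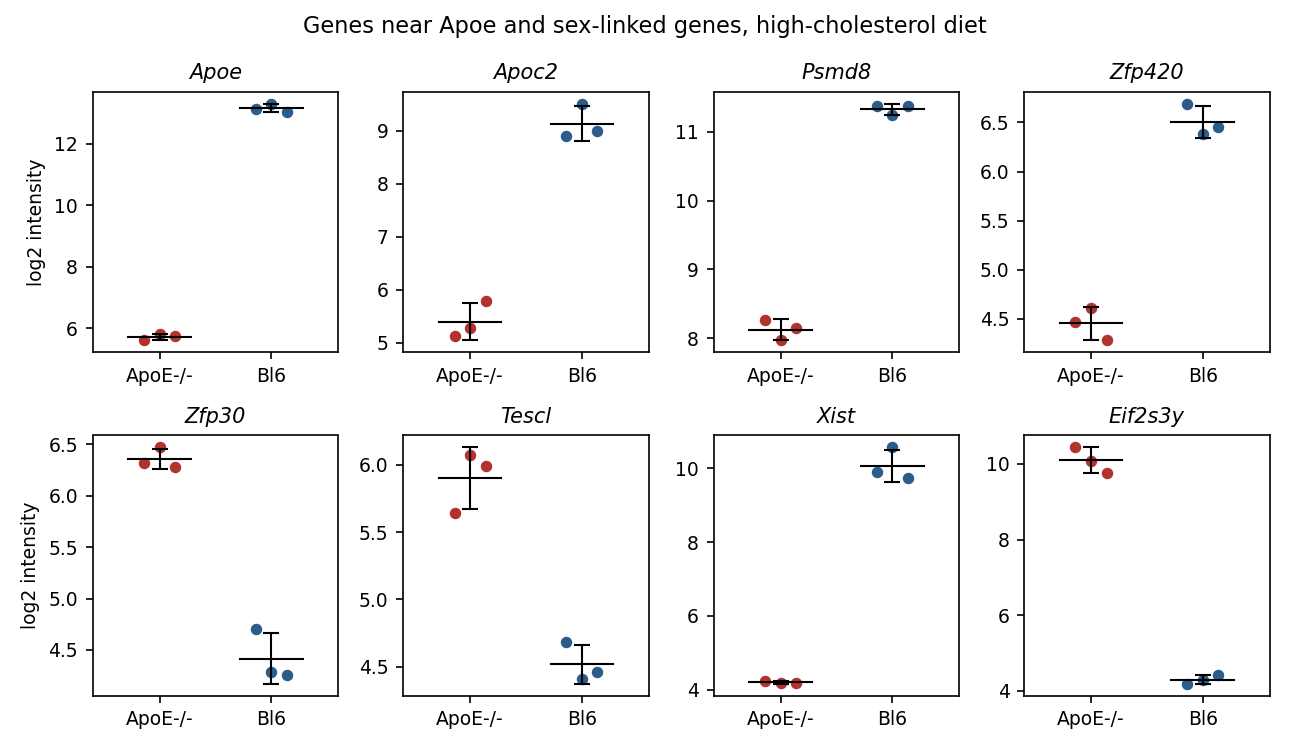
Log2 intensity of 6 genes near Apoe or Apoe itself, and of the sex-linked Xist and Eif2s3y, on the high-cholesterol diet, with ApoE-/- samples on the left and Bl6 samples on the right of each panel. Points are arrays, lines are means and bars are SD (n = 3 each); each panel has its own scale. The groups are apart in all panels, lower in ApoE-/- samples for Apoe, Apoc2, Psmd8, Zfp420 and Xist, and higher for Zfp30, Tescl and Eif2s3y.

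Genes near Apoe differed on chow too, in arrays that share no sample with this comparison. Of the 21 genes, 20 had the same sign on chow and 15 were called there, where 54 of 12772 genes were called in all (0.423%). Their median difference, in the direction of the high-cholesterol contrast, was 1.28 on that diet and 1.19 on chow. Sbsn, the exception in sign, differed by -1.28 ± 0.23 on the high-cholesterol diet and 0.04 ± 0.23 on chow, and by -0.27 with the diets exchanged, where its call was lost (limma, adjusted p = 0.629). Apoe, Apoc2, Clasrp, Psmd8, Mrps12, Zfp30, Zfp420 and Tescl each passed in all 6 fits without 1 array and with the diets exchanged.

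The genotypes also differed in sex-linked transcripts. Xist, the RNA that coats the inactive X chromosome of female cells, had 4 tested probes, all lower in ApoE-/- samples and all called. Its brightest probe was not detected on any ApoE-/- array, while another was detected on 1 of 3. The brightest read 4.24, 4.17 and 4.18 in ApoE-/- samples, against 9.90, 10.57 and 9.75 in Bl6 samples, at least 49.1-fold lower in ApoE-/- samples by that probe (limma, adjusted p = 2.8e-08). The Y-linked Eif2s3y read 10.44, 10.09 and 9.75 in ApoE-/- samples, against 4.19, 4.28 and 4.41 in Bl6 samples, at least 50.1-fold higher in ApoE-/- samples (limma, adjusted p = 2.17e-08). Kdm5d, a Y-linked histone demethylase gene, was at least 8.17-fold higher in ApoE-/- samples. The same held for Xist, Eif2s3y and Kdm5d on chow. ApoE-/- arrays thus showed Eif2s3y and Kdm5d with Xist at or near background, and Bl6 arrays Xist without detected Eif2s3y or Kdm5d, so genotype and this sex-linked state cannot be told apart for any gene of this comparison. The X-linked Kdm6a and Eif2s3x, which escape inactivation, differed by -0.51 ± 0.13 and -0.43 ± 0.10 and did not pass (limma, adjusted p = 0.0934 and 0.0754).

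Apart from these, 141 called genes lay elsewhere or had no place in the gene table. Of these, 116 had the same sign on chow, and 8 were called there. Their median size in the direction of the high-cholesterol contrast was 0.84 on that diet and 0.29 on chow; the first value is raised by choosing the genes on it. Over all genes, 59.8% had the same sign on both diets. Taken in the same direction, the 141 genes had a median difference, high-cholesterol diet minus chow, of -0.41 in Bl6 samples. In ApoE-/- samples it was 0.11. Both medians use arrays of the genotype contrast on which the genes were chosen. No probe passed the direct test of the difference between the diets (limma, 0 of 22729, with 1842 at an unadjusted p under 0.05). The genotype effect was therefore not shown to depend on the diet for any of these genes.

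Neutrophil granule genes were the largest group of called genes among the 45 lists. Of 12 tested genes of secondary and tertiary granules, which store antimicrobial and matrix-degrading proteins, 7 rose in ApoE-/- samples and none fell. Over all genes, 0.415% were called higher. Of the 7, Cd177 and Pglyrp1 lie within 20 Mb of Apoe, where 8 of 336 tested genes were called higher. The median log2 difference of the 12 granule genes was 1.43, beside 0.0101 over all genes, and 1.26 on chow. The mean level of the list was 8.64, 8.23 and 8.74 in ApoE-/- samples, against 7.31, 7.52 and 7.22 in Bl6 samples. In bulk RNA, more cells of a type and more RNA per cell cannot be told apart.

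Ltf, which codes for the iron-binding lactoferrin, read 9.38, 8.21 and 9.25 in ApoE-/- samples, against 6.93, 7.40 and 6.79 in Bl6 samples, a difference of 1.91 ± 0.36 (limma, adjusted p = 0.0311). Lcn2, which codes for a protein that binds bacterial siderophores, read 9.25, 7.99 and 8.96 in ApoE-/- samples, against 6.78, 7.22 and 6.93 in Bl6 samples, a difference of 1.76 ± 0.34 (limma, adjusted p = 0.0352). Camp, which codes for the antimicrobial cathelicidin, read 9.20, 8.42 and 9.58 in ApoE-/- samples, against 7.30, 7.51 and 7.41 in Bl6 samples, a difference of 1.66 ± 0.32 (limma, adjusted p = 0.034). ApoE-/- sample 5 was the lowest of its group for all of these, and still lay above every Bl6 sample. Ngp, another granule protein gene, was lowest in sample 5 as well and did not pass, with 1.50 ± 0.36 (limma, adjusted p = 0.079).

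The other called granule genes were tighter. Mmp9, a gelatinase stored in tertiary granules, read 8.94, 9.05 and 9.01 in ApoE-/- samples, against 8.07, 7.88 and 7.54 in Bl6 samples, a difference of 1.17 ± 0.17 (limma, adjusted p = 0.0121). Lrg1, which codes for a leucine-rich glycoprotein, rose by 1.49 ± 0.21 (limma, adjusted p = 0.0121). Cd177, a neutrophil surface glycoprotein gene, rose by 1.56 ± 0.18, and Pglyrp1, which codes for a peptidoglycan-binding protein, rose by 1.38 ± 0.16 (limma, adjusted p = 0.00257 for each). Cd177 and Pglyrp1 lie within 20 Mb of Apoe, 5.05 and 0.811 Mb away. A further probe, which carries the older name Pglyrp, fell by 1.14 on the log2 scale (± 0.20; limma, adjusted p = 0.0251), opposite to Pglyrp1, and the gene table lists that name as a synonym of Pglyrp1.

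Genes of mature neutrophils lay higher in all 12 tested members, and 2 were called by their brightest probe. Over all genes, 51.7% lay higher and 0.415% were called higher. Dimmer probes of Csf3r, the G-CSF receptor gene (1.23 ± 0.23 and 0.84 ± 0.16), and Mrgpra2b (1.69 ± 0.31) were called too (limma, adjusted p = 0.0303, 0.0317 and 0.0299), while their brightest probes had 0.45 and 0.37 and did not pass. S100a8 and S100a9 code for the partner subunits of calprotectin, a calcium- and zinc-binding complex that fills the neutrophil cytosol. S100a8 read 13.62, 13.07 and 13.36 in ApoE-/- samples, against 12.02, 12.18 and 12.15 in Bl6 samples, a difference of 1.23 ± 0.19 (limma, adjusted p = 0.0167). S100a9 read 12.48, 11.82 and 12.24 in ApoE-/- samples, against 10.75, 11.02 and 11.03 in Bl6 samples, a difference of 1.25 ± 0.21 (limma, adjusted p = 0.0223). The median of the list was 0.44, and 0.51 on chow. None of 7 tested azurophil granule and precursor genes was called by limma, 2 of them with an unadjusted p under 0.05. Their median was 0.41, and the mean level of that list, 6.03 to 6.65 in ApoE-/- samples against 6.11 to 6.21 in Bl6 samples, overlapped.

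**Figure D3:**
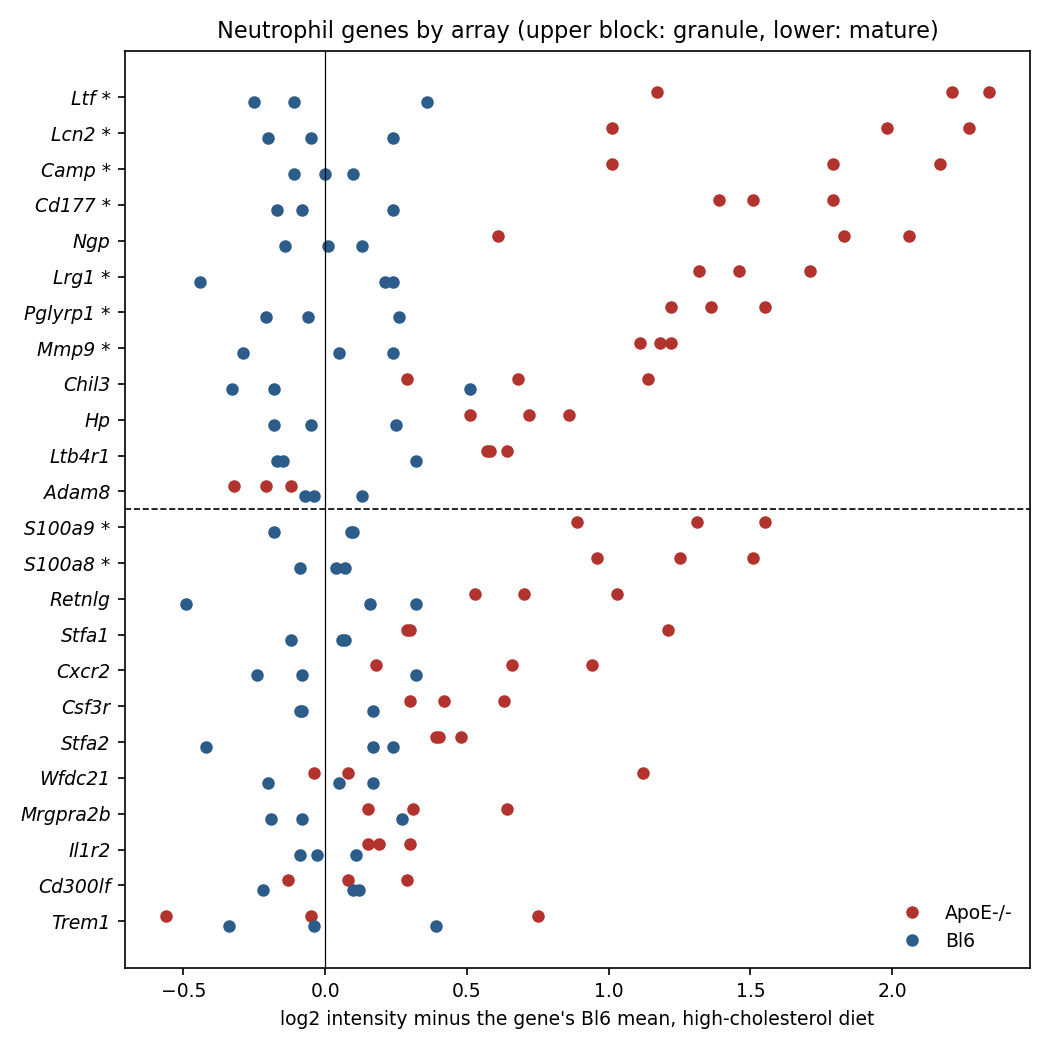
Neutrophil genes on each array, as log2 intensity minus the gene's mean in Bl6 samples on the high-cholesterol diet (x axis). Red points are the 3 ApoE-/- samples and blue points the 3 Bl6 samples of each gene; the upper block holds the 12 tested granule genes, the lower the 12 of mature neutrophils, and asterisks mark the 7 and 2 that were called. For the called genes all red points lie to the right of all blue ones.

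On chow the granule genes differed between the genotypes in the same direction, by 1.60 ± 0.36 for Ltf, 1.70 ± 0.32 for Camp, 1.49 ± 0.21 for Lrg1 and 0.49 ± 0.17 for Mmp9. Of these Lrg1 passed there (limma, adjusted p = 0.0154). With the knockout diets exchanged, 6 of the 7 granule calls held and Lcn2 did not (limma, adjusted p = 0.0591). Without Bl6 sample 10, 4 of the 7 were left, and none of the mature neutrophil calls. Mmp9, Lrg1, Cd177 and Pglyrp1 passed in all 6 fits without 1 array, whereas Ltf, Lcn2, Camp and S100a9 passed in 1 and S100a8 in 3.

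To show the start regions of genes that moved together, the 250 bases upstream of Ltf, Lcn2, S100a9 and Camp are given, 5′ to 3′ on the gene's strand, from RefSeq on GRCm38.p6. Capitals mark a match to TTGCNNAA on either strand, a loose form of the sequence that C/EBP factors bind; these factors are known to act at granule genes. The regions are chr9:111019042-111019291 (plus strand) for Ltf, chr2:32387740-32387989 (minus) for Lcn2, chr3:90695722-90695971 (minus) for S100a9 and chr9:109849457-109849706 (minus) for Camp.
Ltf: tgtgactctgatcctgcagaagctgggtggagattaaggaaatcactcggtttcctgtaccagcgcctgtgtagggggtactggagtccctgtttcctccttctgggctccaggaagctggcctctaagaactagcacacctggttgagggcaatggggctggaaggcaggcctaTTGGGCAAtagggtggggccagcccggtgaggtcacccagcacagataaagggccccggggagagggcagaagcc
Lcn2: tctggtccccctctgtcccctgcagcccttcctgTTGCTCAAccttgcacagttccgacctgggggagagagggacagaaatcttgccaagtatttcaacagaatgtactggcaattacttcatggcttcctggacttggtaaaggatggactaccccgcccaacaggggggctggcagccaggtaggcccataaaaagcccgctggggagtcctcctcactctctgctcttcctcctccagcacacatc
S100a9: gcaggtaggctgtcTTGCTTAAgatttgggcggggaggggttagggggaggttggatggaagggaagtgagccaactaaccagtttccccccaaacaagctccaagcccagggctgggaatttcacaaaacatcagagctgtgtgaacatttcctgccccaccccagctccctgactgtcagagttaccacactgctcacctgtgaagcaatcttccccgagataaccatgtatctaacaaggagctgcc
Camp: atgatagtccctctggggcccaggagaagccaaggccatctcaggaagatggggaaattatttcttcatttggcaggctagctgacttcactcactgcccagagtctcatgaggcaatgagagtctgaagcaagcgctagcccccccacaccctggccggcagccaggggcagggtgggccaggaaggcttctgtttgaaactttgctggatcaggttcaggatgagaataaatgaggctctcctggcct
Each of the first 3 regions held 1 match and that of Camp held none. Of the 24 tested granule and mature neutrophil genes, 21 had a promoter in the table and 7 of these held the pattern, as did 9.56% of all 32851 promoters. A match describes the letters only.

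Other myeloid genes changed singly. F13a1, the coagulation factor XIII subunit gene of monocytes, read 6.03, 5.97 and 6.44 in ApoE-/- samples, against 4.97, 4.69 and 5.17 in Bl6 samples. Its difference of 1.20 ± 0.24 passed (limma, adjusted p = 0.0419), as the only one of 8 tested monocyte genes, and it passed neither in any fit without 1 array nor with the diets exchanged (limma, adjusted p = 0.0643). Il1b, which codes for the inflammatory cytokine interleukin 1 beta, read 11.19, 11.21 and 11.05 in ApoE-/- samples, against 10.17, 10.55 and 10.18 in Bl6 samples, a rise of 0.85 ± 0.14 (limma, adjusted p = 0.0202). It was the only one of 14 tested genes of the interleukin 1 family and inflammasome to be called, and on chow it differed by -0.04 ± 0.14. Il1b passed in 2 of 6 fits without 1 array. From chow to the high-cholesterol diet it differed by -0.90 ± 0.14 in Bl6 samples (limma, adjusted p = 0.0589). In ApoE-/- samples that difference was -0.01 ± 0.14. Mefv, which codes for the inflammasome sensor pyrin, rose by 0.96 ± 0.14 (limma, adjusted p = 0.0121). Neutrophils and monocytes express Il1b and Mefv too, and the neutrophil level given above was higher in the same 3 arrays; its part in these values was not tested.

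Receptors and macrophage genes were among those that fell. Tlr4, the receptor for bacterial lipopolysaccharide, read 8.59, 8.94 and 8.80 in ApoE-/- samples, against 9.46, 9.30 and 9.79 in Bl6 samples, a difference of -0.74 ± 0.15 (limma, adjusted p = 0.0424). It was the only called gene of 17 in the Toll-like receptor list, and its call was lost with the diets exchanged (limma, adjusted p = 0.106). Tlr4 passed in none of the fits without 1 array. Dimmer Tlr4 probes had -0.65 ± 0.17 and -0.29 ± 0.20 and were not called (limma, adjusted p = 0.098 and 0.542). Fcgr3, a receptor for immunoglobulin G, fell by 0.78 on the log2 scale (± 0.11; limma, adjusted p = 0.0121; 0.0507 with the diets exchanged). Trf, which codes for transferrin, read 12.23, 12.42 and 12.45 in ApoE-/- samples, against 13.11, 13.11 and 12.90 in Bl6 samples, a difference of -0.67 ± 0.12 (limma, adjusted p = 0.0247), but it passed in none of the fits without 1 array.

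By its brightest probe, Trf was the only called gene of 17 for red pulp and marginal zone macrophages. Those of the red pulp clear old erythrocytes and recycle their iron. In 10 of the 17 every ApoE-/- value lay below every Bl6 value, where 10.4% of all genes did so, and the median was -0.34. In 3 of the 17 the difference was above 0: Adgre1, Siglec1 and Marco, the last a scavenger receptor gene of marginal zone macrophages. Marco read 11.51, 11.73 and 8.71 in ApoE-/- samples, against 8.99, 9.01 and 9.01 in Bl6 samples, so that 2 ApoE-/- samples lay far above the Bl6 samples and 1 below (1.65 ± 0.87; limma, adjusted p = 0.41). Dimmer probes of Vcam1, an adhesion molecule gene, and of Mertk, a receptor gene for dying cells, were called with -0.99 ± 0.20 and -0.93 ± 0.19 (limma, adjusted p = 0.0462 and 0.0414), while their brightest probes had -0.34 and -0.45 and did not pass. The mean level of the list was 11.58 to 11.83 in ApoE-/- samples against 11.94 to 12.02 in Bl6 samples. Cd68, a lysosomal macrophage protein gene, differed by -0.66 ± 0.15 (limma, adjusted p = 0.0589), Cd163, the haemoglobin scavenger receptor, by -0.54 ± 0.11 (adjusted p = 0.0503), and Spic, the transcription factor of red pulp macrophages, by -0.50 ± 0.16 (adjusted p = 0.172). The 3 chains of complement C1q, which these macrophages also make, differed alike and did not pass: C1qa by -0.51 ± 0.11, C1qb by -0.52 ± 0.12 and C1qc by -0.50 ± 0.12 (limma, adjusted p = 0.063, 0.066 and 0.0829). The members of such a list may come from the same cells and are not independent.

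Dendritic cell genes did not pass. None of the 11 core genes, the 9 of type 1, the 10 of type 2 or the 12 of plasmacytoid dendritic cells was called by limma, and 2, 1, 5 and 1 of them had an unadjusted p under 0.05. Their medians were 0.05, -0.17, 0.30 and 0.13, and on chow 0.16, 0.03, 0.13 and -0.37. Of the type 1 genes 8 lay below 0, and of the type 2 genes 9 lay above 0. The mean level of the type 1 list was 8.42 to 8.56 in ApoE-/- samples against 8.67 to 8.70 in Bl6 samples. For the type 2 list it was 9.47 to 9.54 against 9.20 to 9.31, and for the core list 9.34 to 9.40 against 9.18 to 9.30. The levels of the plasmacytoid list overlapped. The member closest to the threshold was Cadm1, an adhesion molecule gene of type 1 cells, with -0.71 ± 0.15 (limma, adjusted p = 0.0521). Csf2rb, the shared receptor chain for GM-CSF and related cytokines, differed by 0.80 ± 0.20 (limma, adjusted p = 0.0979). Lists for MHC class II presentation (13 genes, median -0.12), maturation and costimulation (13 genes, -0.01), interferon-stimulated genes (20 genes, -0.16) and cell cycle (21 genes, 0.10) had no member called by its brightest probe. Of the MHC class II genes 11 lay below 0, as did 18 interferon-stimulated genes, while 17 cell cycle genes lay above 0. Over all genes, 51.7% lay above 0. On chow the medians of these 3 lists were -0.02, 0.16 and 0.32. By brightest probes, 31 of the 45 lists had no called member, with medians from -0.17 to 0.41, and by any probe 27 had none. Dimmer probes were called for the interferon-stimulated Ifit3 (-1.0 ± 0.19; limma, adjusted p = 0.0329), the chemokine gene Ccl4 (0.76 ± 0.15; 0.0348), the T cell co-receptor gene Cd8b1 (0.73 ± 0.13; 0.0292) and the chaperone gene Hspa8 (-0.68 ± 0.11; 0.0177). The brightest probes of these genes had -0.36, 0.65, 0.59 and 0.08 and did not pass. Outside the interferon list, the interferon-induced Gm4951, Ube2l6 and Shfl were called lower in ApoE-/- samples by their brightest probes. Gm4951 passed in all 6 fits without 1 array, with -1.23 to -1.02, and with the diets exchanged (limma, adjusted p = 0.00565). Ube2l6 and Shfl each passed in 1 of the 6 fits without 1 array. Their dimmer probes, in the order Gm4951, Ube2l6 and Shfl, had 0.05, -0.36 and 0.12 and were not called.

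**Figure D4:**
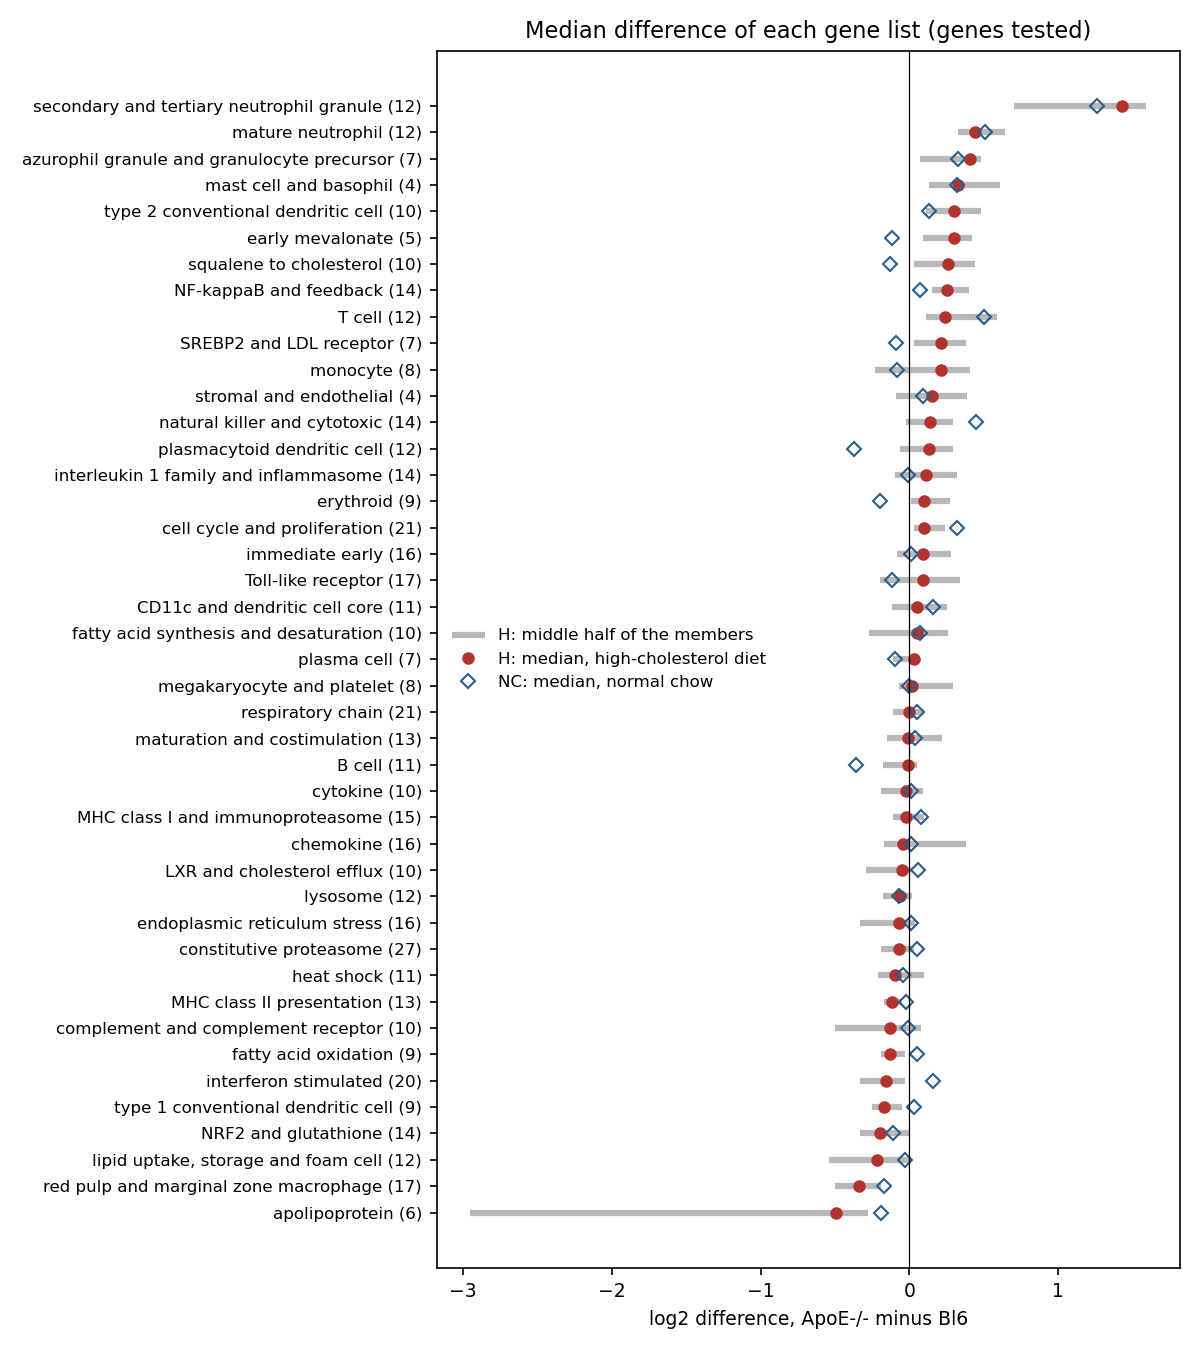
Median log2 difference, ApoE-/- minus Bl6, of each gene list other than the sex-linked ones (number of tested genes in brackets). Red dots give the high-cholesterol diet, grey bars the middle range of the members there, from the lower to the upper quartile, and open blue diamonds normal chow. The granule list lies farthest to the right, at 1.43 and 1.26, and the macrophage and apolipoprotein lists lie lowest, at -0.34 and -0.49 on the high-cholesterol diet.

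Cells that lack cholesterol raise their own synthesis through SREBP2, which turns on the genes from acetyl-CoA to cholesterol, and cells rich in it turn these genes down. A pair of enzymes of the later steps was higher in ApoE-/- samples. Sqle, the squalene epoxidase gene, read 9.52, 8.95 and 8.85 in ApoE-/- samples, against 8.13, 8.02 and 8.11 in Bl6 samples. The groups were apart, by 1.02 ± 0.16 (limma, adjusted p = 0.0183), while a second, dim Sqle probe gave 0.35 ± 0.31. Hsd17b7, a sterol reductase gene of the same branch, read 8.15, 7.69 and 7.94 in ApoE-/- samples, against 7.22, 7.38 and 7.29 in Bl6 samples, a difference of 0.63 ± 0.13 (limma, adjusted p = 0.0412). Of 10 tested genes from squalene to cholesterol these 2 were called, and the median was 0.26. None of 5 earlier mevalonate genes was called, with a median of 0.30, nor any of 7 of SREBP2 and the LDL receptor; 2 and 3 of these had an unadjusted p under 0.05.

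On chow these genes did not stand higher in ApoE-/- samples: Sqle differed by -0.63 ± 0.16, Hsd17b7 by -0.17 ± 0.13 and the squalene list by a median of -0.13. The difference between the diets was 1.65 for Sqle and did not pass (limma, adjusted p = 0.0766). Within Bl6 samples, Sqle was lower on the high-cholesterol diet than on chow by a log2 of -1.47 (limma, adjusted p = 0.00771) and Hsd17b7 by -0.82 (adjusted p = 0.0589). That contrast uses the same Bl6 high-cholesterol arrays as the genotype contrast, so a low value there enters both. Fdps, which makes farnesyl diphosphate, and Srebf2, which codes for SREBP2, had 0.58 ± 0.14 and 0.58 ± 0.16 between the genotypes on the high-cholesterol diet and did not pass (limma, adjusted p = 0.0746 and 0.117). Sqle and Hsd17b7 passed with the diets exchanged, and neither passed without Bl6 sample 10.

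The region upstream of Hsd17b7, chr1:169969206-169969455 (minus strand, RefSeq, GRCm38.p6), is shown because sterol genes carry CCAAT elements there; capitals mark each CCAAT on either strand. NF-Y, which binds this element, is known to act beside SREBP2.
Hsd17b7: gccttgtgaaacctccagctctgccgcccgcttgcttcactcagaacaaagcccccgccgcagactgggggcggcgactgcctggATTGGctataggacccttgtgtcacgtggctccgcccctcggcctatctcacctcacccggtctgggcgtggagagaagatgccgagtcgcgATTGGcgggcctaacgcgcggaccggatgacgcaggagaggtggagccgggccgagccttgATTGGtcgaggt
It held 3 matches, all on the opposite strand. Of the 15 tested genes of sterol synthesis, 13 had a promoter in the table and 12 of these held the element, as did 33.8% of all promoters. Patterns for the SREBP element itself, TCACNCCAC, TCANCCCAC and a longer form, were found in 0 of the 13, and in 1.05%, 1.17% and 0.192% of all promoters. No promoter for Sqle or Fdps was in the table.

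Genes of lipid handling and of the response to oxidants fell where they were called. Plin2, the coat protein gene of lipid droplets, read 7.77, 8.20 and 8.01 in ApoE-/- samples, against 8.62, 8.84 and 8.70 in Bl6 samples, a difference of -0.73 ± 0.15 (limma, adjusted p = 0.0475). Hilpda, whose product blocks the lipase of lipid droplets, differed by -0.75 ± 0.12 (limma, adjusted p = 0.0187). By brightest probes these were 2 of 12 tested genes for the uptake and storage of lipid and for foam cells, with a median of -0.22; Lpl, the lipoprotein lipase gene, had -0.91 ± 0.21 and did not pass (adjusted p = 0.0712). Pparg, a regulator of lipid storage, had -0.48 by its brightest probe (limma, adjusted p = 0.0582) and -1.01 ± 0.19 by a dimmer one that was called (adjusted p = 0.034). None of 10 genes of cholesterol efflux and its regulator LXR was called (median -0.05), nor any of 9 of fatty acid oxidation (median -0.13). Plin2 passed in none of the fits without 1 array, and Hilpda in 1 of them and not with the diets exchanged (limma, adjusted p = 0.0589).

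Gclc, which codes for the catalytic subunit of the first enzyme of glutathione synthesis, read 5.47, 5.50 and 5.31 in ApoE-/- samples, against 6.35, 6.26 and 6.34 in Bl6 samples. It fell by 0.89 on the log2 scale (± 0.11; limma, adjusted p = 0.00449) and passed in all 6 fits without 1 array, but not with the diets exchanged, where it had -0.54 (adjusted p = 0.0542). It was the only one of 14 tested genes of NRF2 and glutathione to be called, with a list median of -0.20. The gene of the partner subunit, Gclm, had -0.38 ± 0.11 (limma, adjusted p = 0.133).

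The remaining genes with the largest differences belonged to no list. Tmem178, which codes for a membrane protein of the endoplasmic reticulum, read 5.46, 5.09 and 5.39 in ApoE-/- samples, against 6.75, 6.80 and 6.77 in Bl6 samples, a difference of -1.46 ± 0.13 (limma, adjusted p = 0.000327). Hcar2, the receptor for niacin and beta-hydroxybutyrate, read 9.22, 9.52 and 9.73 in ApoE-/- samples, against 10.86, 10.60 and 11.02 in Bl6 samples, a difference of -1.33 ± 0.15 (limma, adjusted p = 0.00185). Both passed in all 6 fits without 1 array and with the diets exchanged.

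Other large falls varied more between arrays. Ptgis, the prostacyclin synthase gene, read 8.07, 8.48 and 9.53 in ApoE-/- samples, against 10.47, 10.84 and 10.25 in Bl6 samples, a difference of -1.83 ± 0.35 (limma, adjusted p = 0.034). Ccn5, which codes for a matrix-associated signalling protein, read 4.60, 6.03 and 6.36 in ApoE-/- samples, against 7.36, 7.31 and 7.35 in Bl6 samples, a difference of -1.68 ± 0.35 (limma, adjusted p = 0.0488). Cpne4, which codes for a calcium-dependent membrane-binding copine, read 5.10, 5.23 and 6.42 in ApoE-/- samples, against 7.09, 7.27 and 7.14 in Bl6 samples, a difference of -1.58 ± 0.31 (limma, adjusted p = 0.0383). In all 3, ApoE-/- sample 6 was the highest of its group and yet below every Bl6 sample. With the diets exchanged, Ptgis and Ccn5 lost their calls (limma, adjusted p = 0.0832 and 0.0913) and Cpne4 kept it. Cbr2, a carbonyl reductase gene, fell by 1.40 on the log2 scale (± 0.25), Fgf1, a fibroblast growth factor gene, by 1.33 (± 0.24), and Epn2, an endocytic adaptor gene, by 1.31 (± 0.26), with limma's adjusted p at 0.028, 0.0279 and 0.0419. Epn2 and Fgf1 lost their calls with the diets exchanged. Of the 6 fits without 1 array, Epn2 and Cbr2 passed in none, Fgf1, Ptgis and Cpne4 in 1 each, and Ccn5 in 2. Dimmer Epn2 probes had -0.09, -0.83 and -0.09 and were not called (limma, adjusted p = 0.896, 0.1 and 0.906).

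Among the rises outside these groups, Dctn1, which codes for the largest subunit of dynactin, a cofactor of the dynein motor, read 7.30, 7.11 and 7.52 in ApoE-/- samples, against 5.40, 4.94 and 5.81 in Bl6 samples. The groups did not overlap, with a difference of 1.93 ± 0.33 (limma, adjusted p = 0.0235), and it passed in 1 of 6 fits without 1 array. On chow it differed by 0.50 ± 0.33. From chow to the high-cholesterol diet Dctn1 differed by -1.44 ± 0.33 in Bl6 samples (limma, adjusted p = 0.127) and by -0.01 ± 0.33 in ApoE-/- samples. Pth2, which codes for a peptide ligand of a parathyroid hormone receptor, was not detected on any Bl6 array and was at least 1.90-fold higher in ApoE-/- samples (limma, adjusted p = 0.00712). It read 5.31, 5.27 and 5.63 in ApoE-/- samples, against 4.56, 4.28 and 4.32 in Bl6 samples, with -0.22 ± 0.13 between the genotypes on chow. With the diets exchanged it did not reach the detection filter.

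**Figure D5:**
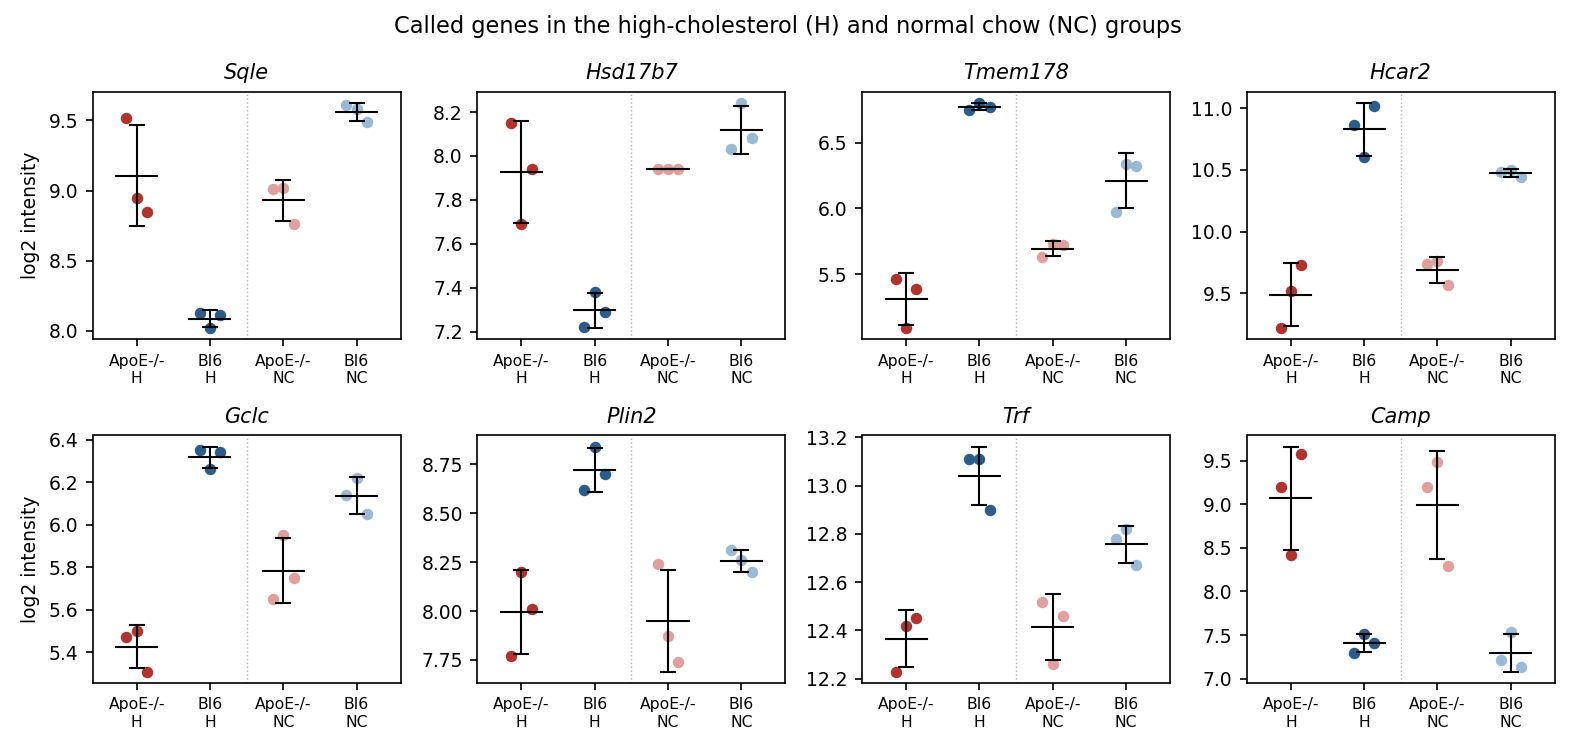
Log2 intensity of 8 called genes in the 4 groups, with ApoE-/- left of Bl6 on the high-cholesterol diet (H) and on normal chow (NC). Points are arrays, lines are means and bars SD (n = 3 each), and each panel has its own scale. Camp is higher in ApoE-/- samples on both diets; for Sqle and Hsd17b7 the Bl6 samples on the high-cholesterol diet are the lowest group.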

How the data were processed

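RNA of CD11c+ spleen cells was measured on 12 Illumina arrays, 3 in each of 4 groups. Per the file headers, one deposited table holds a linear intensity and a detection p-value per probe and array, and the other deposited table holds log2 values. The sources used here do not give how either was made; after the knockout exchange, a log2 column differs from the log2 of its array's intensities by a constant (SD over probes 3.16e-05 to 3.68e-05). Intensities were corrected with nec in limma 3.58.1 (R 4.3.3), which infers the negative controls from the detection values, with an offset of 16, then quantile-normalised over 12 arrays and put on the log2 scale. Tested probes had a detection value under 0.05 on 3 or more of the 6 high-cholesterol arrays. One model with 4 group means gave moderated two-sided tests (8 residual and 3.2 prior degrees of freedom), adjusted by Benjamini-Hochberg over all tested probes; ± is the model's SE unless SD is stated. The array number limits the precision. The model fit and its test were also run on simulated log2 values with independent normal spread. The background correction, normalisation, probe filter and choice of the brightest probe were not part of that simulation.

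Probes were named from the platform list (35784 probes with 1 symbol, 0 with several, 10453 with none), updated through a RefSeq gene table of GRCm38.p6: 28620 probes matched through their gene number, 2637 through a transcript and 2128 through the symbol, while 2399 found no match. Of 48 called genes with over 1 tested probe, 50 of the 67 other probes had the same sign and 12 were called alike. Where a gene was undetected on all arrays of a group, a fold is a lower bound against the array's lowest signal among detected probes, or the probe's own where higher.

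Named genes were Apoe, the 12 largest rises and falls among called genes (predicted models and clone names left out), up to 5 called members of each of 45 lists or the member with the smallest p, up to 10 called genes near Apoe, and Itgax with cell type markers. The genes, lists and comparisons were chosen with earlier results of these data known. Other list members and dimmer probes, Fcgr3, Mefv, Pth2, Gm4951, Ube2l6, Shfl and the promoter patterns were chosen after their values were seen. Besides TTGCNNAA and CCAAT, the patterns TTNCGCAA, TTGCGCAA, TTGNNCAAT, TCACNCCAC, TCANCCCAC and GGGTTA and longer forms of the SREBP, LXR and NF-kappaB elements were searched, on both strands; TTGCGCAA is a form of TTGCNNAA. The first 6 occurred in 0.67%, 0.164%, 2.27%, 1.05%, 1.17% and 7.3% of promoters. Alternatives were the exchanged diets, other backgrounds, scalings, filters and moderation, array weights, and leaving out each array.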

Additional observations from a re-analysis of the deposited data

How the results depend on the processing

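Counts of calls moved with the processing, and Apoe passed in every setting run, between -7.53 and -6.01 on the log2 scale. For the high-cholesterol comparison, probes called were 32 in a fit of the 6 arrays alone, 496 with an offset of 50, 642 without background correction, 934 in the deposited log2 values and 722 with trended, robust moderation. Genes called higher were 9, 130, 194, 448 and 225 under those settings, and 32 with median scaling and 93 with detection on all 6 arrays. Genes called lower were 12 in the 6 arrays alone, 202 with an offset of 50, 247 without background correction, 265 with robust moderation and 74 with the diets exchanged. Called genes near Apoe were 10, 34, 41, 41 and 45 under the first 5 settings. Leaving out 1 array gave 48 to 118 probes, 12 to 24 genes higher, 21 to 62 lower and 10 to 15 near Apoe. On chow, 151, 223, 218 and 236 probes were called with an offset of 50, without background correction, in the deposited values and with robust moderation. The difference between diets had 8, 9, 8 and 11 called probes under these, and 9 with detection on all 6 arrays, where the comparison here had 0.

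Of the 165 called genes, 164 kept their sign in every setting and 1, known only by a clone name, turned sign with the diets exchanged. Those that passed again numbered 159 with an offset of 50, 148 without background correction, 124 with median scaling, 140 in the deposited values, 129 with detection on 3 of 12 arrays, 123 with no filter, 153 with robust moderation and 159 with array weights. Each arm rests on 3 arrays, and a lone left-out array leaves 2. Among genes that were not called, Itgax turned to 0.021 with the diets exchanged, 0.056 in the deposited values, -0.142 to 0.167 when 1 array was left out, and Itgb3, a platelet integrin gene, to 0.109 and 0.008 under the first 2 of these, and the brightest Psmc4 probe to -0.034 with median scaling. The cause of these moves was not tested. No paired analysis was possible because the sample numbers run from 1 to 12 and no number is shared between groups.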
